A study of Mus musculus with 10 samples.

Results

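The genes described here are 3 cystatins and 7 lysosomal proteases, measured in microglia sorted from the mouse hippocampus. The cystatins are Cst7, Cst3 and Cstb, and the proteases are Ctsb, Ctsl, Ctss, Ctsz, Lgmn, Ctsd and Ctsa. They were taken by symbol as a family of protease inhibitors and the enzymes around them, with earlier results of these data known, and make up 10 of the 19782 genes in the deposited table. All 10 were among the 12505 genes that passed the filter on low counts. The 10 libraries came from CD45low CD11b+ cells in 3 groups. In the repopulated group (3 libraries), 5xFAD mice had eaten chow with PLX3397 at 290 mg/kg for 1 month from 4 months of age and normal diet for 1 month after it. PLX3397 inhibits the CSF1 receptor, on which microglia depend. Depletion was not measured here, and microglia that survived the drug cannot be told apart from those formed after it. The control group (3 libraries) was 5xFAD mice on normal diet, and the wild-type group (4 libraries) was wild-type mice on normal diet. The labels give no age for these 2 groups. Mice of the 5xFAD line carry transgenes driven by a neuronal Thy1 promoter and form amyloid plaques, and the promoter is not a microglial one. Repopulated wild-type mice were not analysed here.

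Cathepsins are proteases that work mostly inside the lysosome, where microglia break down what they have engulfed. Most are made as inactive precursors and are activated by other proteases or by themselves as the compartment turns acidic. They differ in the residue that cuts the substrate: cathepsins B, L, S and Z (the last also called cathepsin X) and legumain are cysteine proteases, cathepsin D is an aspartic protease, and cathepsin A is a serine carboxypeptidase. Cystatins bind cysteine proteases reversibly and block them. Cystatin C (Cst3) is secreted, cystatin B (Cstb) stays in the cytosol, and cystatin F (Cst7) is unusual in being sent to the lysosome, where it can act on cathepsins such as cathepsin C. Cst7 is widely used as a marker of microglia that surround amyloid plaques.

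The libraries held 18501136 to 23286814 estimated counts. Whether libraries of a group came from separate animals is not in the labels, so the spread behind each p-value is that of these samples and may be technical. In bulk samples, fewer cells of a type and less RNA per cell cannot be told apart. The 10 microglia markers summed to 42049 to 54918 CPM (library-scaled counts) in repopulated, 47077 to 53587 in control and 47188 to 54447 in wild-type libraries. Of these 10 markers 5 fell in control against wild type (Tmem119, Cx3cr1, Sall1, Csf1r and P2ry12; edgeR adjusted p under 0.05), where 8.04% of all genes tested fell. In repopulated against control 1 rose (Tmem119), against 0.352% of all genes, and in repopulated against wild type 1 fell (Cx3cr1), against 0.784%.

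Wild-type 3 stood apart in markers of several other cells, and the control libraries differed among themselves in neutrophil markers. The 8 neutrophil markers summed to 319 CPM in control 2, against 17.6 in control 1 and 24.8 in control 3, and to 67.3 to 167 in repopulated and 32.2 to 252 in wild-type libraries. S100a8, a calcium-binding protein gene of neutrophils, had 149 CPM in control 2, 8.97 in control 1 and 8.25 in control 3. Wild-type 3 had the highest sums of astrocyte (7 genes, 555 CPM), oligodendrocyte (6 genes, 105), erythrocyte (5 genes, 281) and neuron markers (8 genes, 63), against at most 315, 45.3, 20.7 and 13.1 in the other wild-type libraries. Without wild-type 3, edgeR called 2910 genes in control against wild type, against 2265 with it, and 328 in repopulated against control, against 71, and of the 10 genes Ctsl was gained in the second of these. The 8 neuron markers summed to 4.99 to 10.3 CPM in repopulated, 3.89 to 8.26 in control and 11 to 63 in wild-type libraries, with no overlap between wild type and the other groups. The 7 border macrophage markers summed to 56.8 to 98 CPM in repopulated, 70.8 to 128 in control and 69.6 to 118 in wild-type libraries. The highest sum in any library was 47.9 CPM for 6 monocyte, 39.0 for 6 endothelial and mural and 0.354 for 5 lymphocyte markers. Of 42 tested markers of other cells, 2 rose and 3 fell in control against wild type, where 10.1% of all genes tested rose and 8.04% fell. Fn1 rose 11.1-fold (edgeR adjusted p = 0.000642) and Flt1 16.1-fold (edgeR adjusted p = 1.07e-06), and Pecam1, Snap25 and Mag fell. In repopulated against wild type Fn1 and Flt1 rose 6.1-fold (edgeR adjusted p = 0.0132) and 10.9-fold (edgeR adjusted p = 7.52e-06), and 0 fell. Of all genes tested 3.4% rose and 0.784% fell there. In repopulated against control edgeR called 0 of the markers, against 0.568% of all genes. At an unadjusted p under 0.05 there were 2 (Gad1 and Mag), against 18.5% of all genes. None of these markers was at 0 in all libraries, and the part of other cells in the results was not tested. The 4 Y-linked genes measured summed to 5.12 to 16.01 CPM of unscaled totals in control 1, control 3 and wild-type 2, called the Y-low libraries below. In the other 7 libraries, control 2 among them, they summed to 341.87 to 483.77 CPM. The Y-low libraries also had the lowest neutrophil marker sums, at 17.6, 24.8 and 32.2 CPM in that order, against 67.3 to 319 CPM in the others. A link between Y-linked status and these sums was not tested.

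The promoters were read for what these genes might share in sequence. RefSeq's table on GRCm38.p6 held windows for 8 of the 10 genes, 10 windows in all because Ctsa and Lgmn have 2 annotated starts each. A window runs from 250 bases before the start to 50 after it. Of 7 motifs searched on both strands, all picked after values and sequences had been seen, CACGTG, the E-box core bound by TFEB and related factors of lysosomal genes, was present in windows of 4 of the 8 genes, Ctsd, Ctsl, Ctsa and Lgmn. It was present in 4 of the 10 windows of these genes and in 7.15% of 32851 windows of the same length. For each motif searched, as many of the 10 windows as genes held a match. The 250 bases before the start are printed 5′ to 3′ on the gene's strand for these 4 genes, with CACGTG in capitals, and for Cst7 and Cst3, the cystatins with the largest fold change and the highest level, whose windows hold no CACGTG.
Ctsd, minus strand, chr7:142387828-142388077: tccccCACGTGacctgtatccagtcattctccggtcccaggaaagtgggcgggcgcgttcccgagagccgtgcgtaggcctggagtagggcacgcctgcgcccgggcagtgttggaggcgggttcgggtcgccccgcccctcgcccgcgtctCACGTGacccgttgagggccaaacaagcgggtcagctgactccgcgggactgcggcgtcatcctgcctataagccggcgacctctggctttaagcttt
Ctsa, plus strand, the start with a match, chr2:164833523-164833772: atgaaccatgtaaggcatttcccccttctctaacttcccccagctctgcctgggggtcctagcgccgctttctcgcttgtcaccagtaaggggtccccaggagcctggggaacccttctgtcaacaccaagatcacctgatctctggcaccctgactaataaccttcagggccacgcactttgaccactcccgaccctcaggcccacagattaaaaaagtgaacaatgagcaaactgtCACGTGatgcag
Ctsl, minus strand, chr13:64370521-64370770: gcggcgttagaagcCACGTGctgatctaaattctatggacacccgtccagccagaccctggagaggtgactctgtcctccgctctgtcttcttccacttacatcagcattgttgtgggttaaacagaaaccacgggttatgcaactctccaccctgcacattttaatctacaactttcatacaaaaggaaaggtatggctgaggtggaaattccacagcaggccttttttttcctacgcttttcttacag
Lgmn, minus strand, the start with a match, chr12:102439093-102439342: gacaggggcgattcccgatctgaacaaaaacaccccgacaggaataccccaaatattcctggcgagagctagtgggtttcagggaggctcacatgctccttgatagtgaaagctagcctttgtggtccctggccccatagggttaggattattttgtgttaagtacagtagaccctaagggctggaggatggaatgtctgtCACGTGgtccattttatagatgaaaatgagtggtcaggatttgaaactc
Cst7, plus strand, chr2:150570165-150570414: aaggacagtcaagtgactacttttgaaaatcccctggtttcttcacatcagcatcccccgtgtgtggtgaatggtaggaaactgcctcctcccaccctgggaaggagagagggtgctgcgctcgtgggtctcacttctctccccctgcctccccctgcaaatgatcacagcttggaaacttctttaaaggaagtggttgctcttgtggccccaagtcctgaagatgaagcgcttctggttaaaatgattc
Cst3, minus strand, chr2:148875513-148875762: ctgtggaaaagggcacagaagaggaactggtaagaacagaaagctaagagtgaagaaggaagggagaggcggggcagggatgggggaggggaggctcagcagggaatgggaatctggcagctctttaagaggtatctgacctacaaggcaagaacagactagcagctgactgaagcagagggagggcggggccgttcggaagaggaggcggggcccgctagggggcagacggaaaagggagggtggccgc
The first letter of CACGTG stood 245 and 98 bases before the Ctsd start and 236 before the Ctsl start. It stood 49 bases before that Lgmn start and 12 before that Ctsa start. The match of that Ctsa start was followed by another in the 50 bases after it. Only the Ctsd matches lay upstream of the whole gene as annotated. The windows printed for Ctsl, Ctsa and Lgmn lie inside the annotated genes, at inner starts. The windows at the outer starts of Ctsa and Lgmn held no CACGTG, and none was available at the outer end of Ctsl. The longer TCACGTG, which contains CACGTG, was present in windows of 3 genes (Ctsa, Ctsd and Lgmn) and in 3.77% of all windows. CACATG was found for 3 genes (14.2% of all windows), GAGGAAG for 1 (13.6%), TATAAA for 2 (13.6%), CCGCCC for 5 (35.7%) and TGAGTCA for 0 (5.2%). A match is a run of letters and not a bound site. The 4 genes with CACGTG did not share a pattern of expression: between control and wild-type libraries Ctsd and Ctsl were higher, Lgmn was lower and Ctsa did not pass the test, as described below for each.

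These genes took a large part of the microglial transcript pool. Per length, in TPM, the 10 genes together held 17.0% to 17.9% of each repopulated library, 16.7% to 17.9% of each control library and 15.4% to 16.4% of each wild-type library. Cst3 ranked 1 among all genes in all 10 libraries, with 10.6% to 11.7% of the TPM. Ctss ranked 3 or 4 in every library. At the other end, Cst7 ranked 43 to 48 in repopulated libraries and 39 to 48 in control libraries, against 3421 to 6930 in wild-type libraries. Cstb was the lowest of the 10 in both 5xFAD groups, at a mean of 463 TPM in repopulated and 545 TPM in control libraries, and stood at 296 TPM in wild type, above Cst7 at 22.9 TPM.

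**Figure D1:**
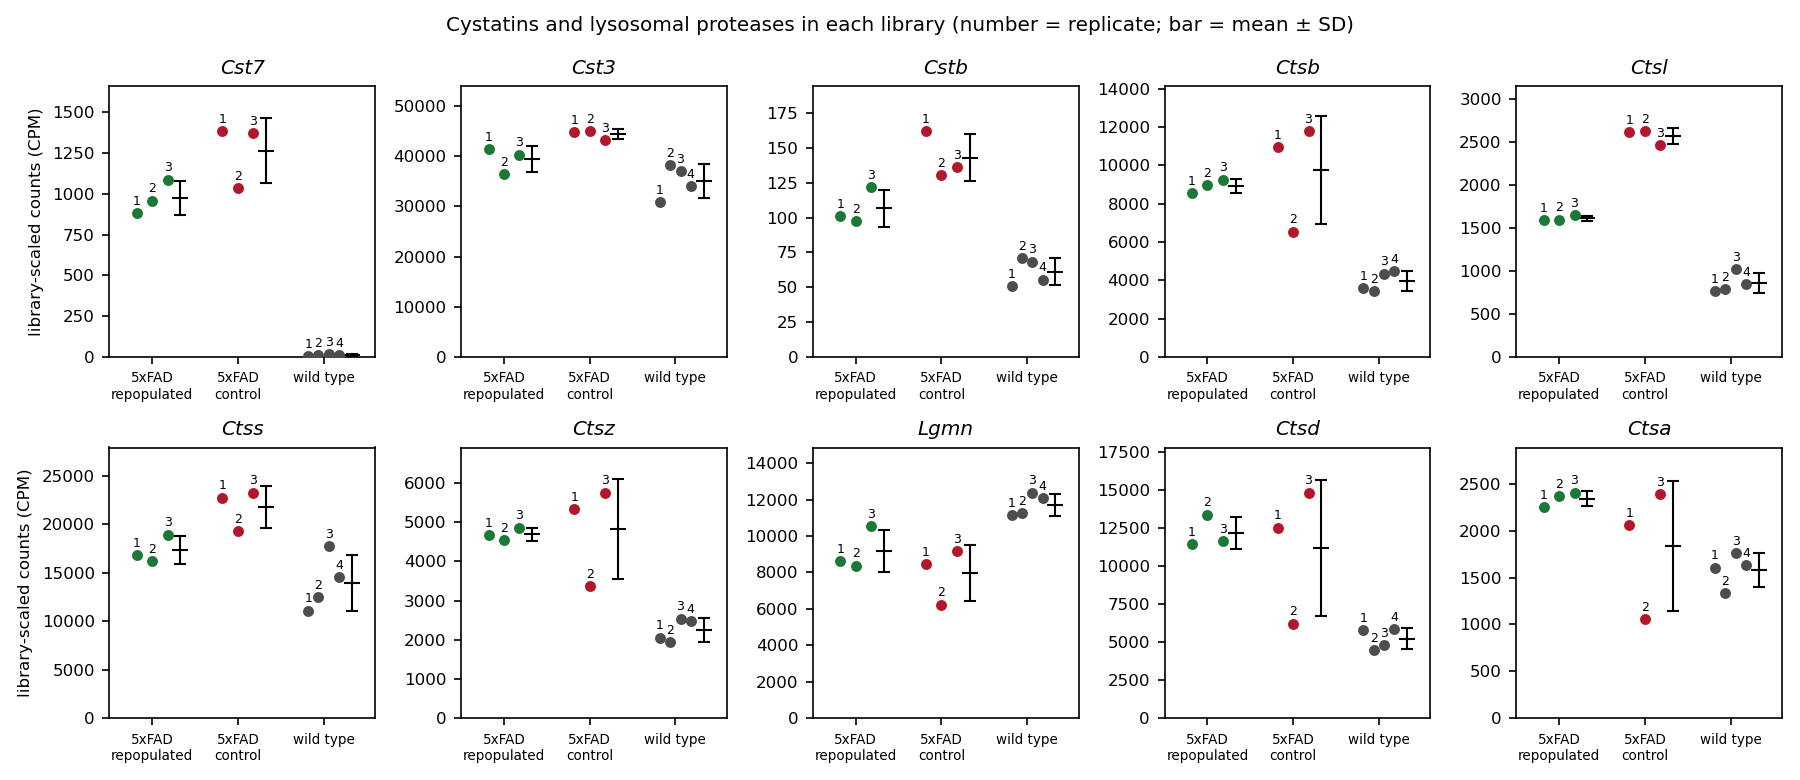
Library-scaled counts (CPM, vertical axes, linear and starting at 0) of the 10 genes in each library, with repopulated 5xFAD, control 5xFAD and wild type from left to right; points are libraries numbered by replicate, and bars are the mean ± SD. Cst7 lies between 882 and 1384 CPM in all 6 libraries from 5xFAD mice and between 4.49 and 15.1 CPM in wild type, Lgmn is highest in wild type, and control 2 lies below controls 1 and 3 for Ctsb, Ctsz, Lgmn, Ctsd and Ctsa.

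The first comparison, control against wild type, addressed what the 5xFAD background changed on normal diet. Of the 10 genes 7 rose, 1 fell and 2 did not pass the test (quasi-likelihood test of edgeR, adjusted over all 12505 genes by Benjamini-Hochberg, adjusted p under 0.05; genes that passed are referred to as called). Of all genes tested 18.1% were called, 10.1% as higher and 8.04% as lower. The median log2 fold change was 1.10 over the 10 genes and -0.06 over all genes tested. The values of control and wild-type libraries did not overlap for 9 of the 10 genes, and did not overlap for 26.7% of all genes tested. The second comparison asked what repopulation changed in 5xFAD mice. All repopulated libraries had Y-linked transcripts whereas controls 1 and 3 were Y-low, so repopulation and Y-linked status were partly mixed in it. Among wild-type libraries only wild-type 2 was Y-low, so Y-linked status was also uneven in both comparisons with wild type. Of the 10 genes 0 were called by edgeR, against 0.568% of all genes tested (0.352% higher, 0.216% lower). At an unadjusted p under 0.05 there were 2, Cstb and Ctsl, against 18.5% of all genes, and both DESeq2 and limma-voom called 1, Ctsl. The groups did not overlap for 4 genes, Cst3, Cstb, Ctsl and Ctss, all lower in repopulated libraries, against 30.7% of all genes. In the third comparison, repopulated against wild type, 6 rose and 4 did not pass, against 4.18% called among all genes (3.4% higher, 0.784% lower), and the groups did not overlap for 8 genes, against 16.0% of all genes. Of all genes 425 rose and 98 fell there, and 400 rose and 202 fell after a correction for GC content and length. The 3 comparisons share libraries, so they are not independent of each other.

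**Figure D2:**
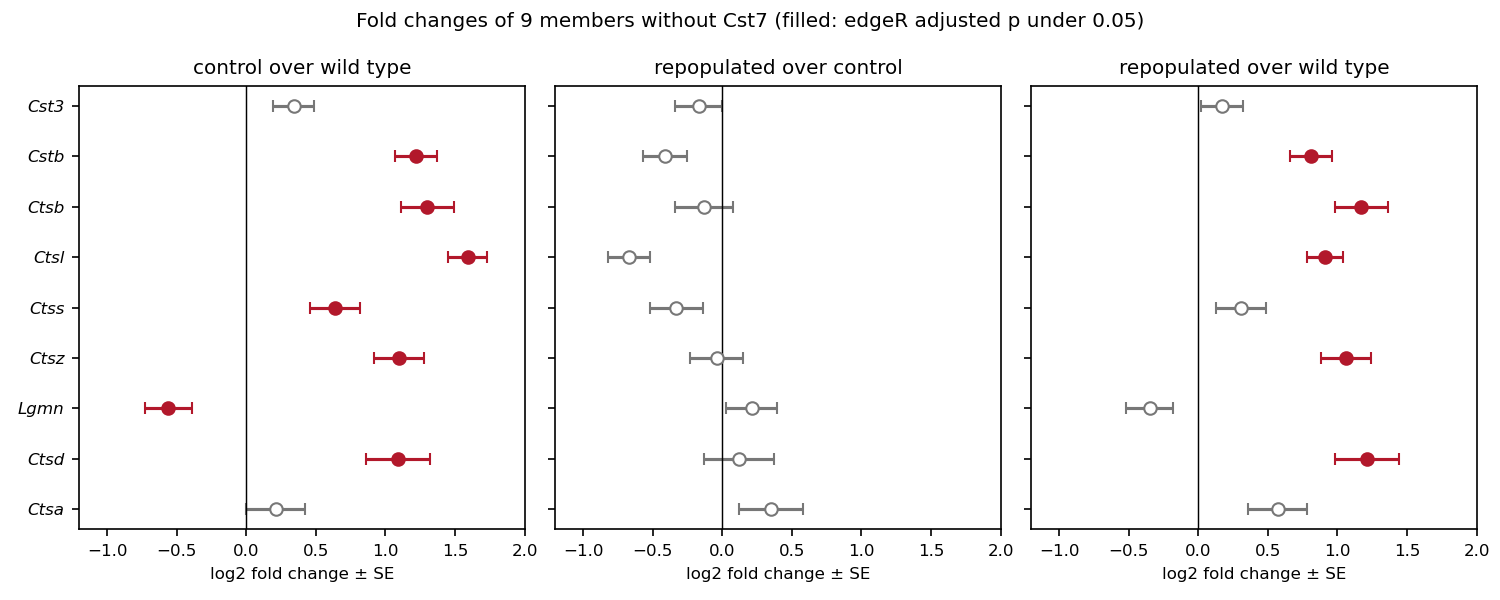
Log2 fold changes with standard errors (horizontal axes) of 9 genes in control over wild type, repopulated over control and repopulated over wild type; filled points passed edgeR's test at an adjusted p of 0.05. Cst7 is left out for scale, at 6.99, -0.37 and 6.61. Filled points stand right of 0 for Cstb, Ctsb, Ctsl, Ctsz and Ctsd in both comparisons with wild type, Lgmn is left of 0 in control over wild type, and no point is filled in repopulated over control.

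Cst7, the cystatin F gene (Entrez 13011, chromosome 2, 150570415 to 150578944, GRCm38.p6), had 882, 957 and 1087 CPM in repopulated, 1384, 1033 and 1372 CPM in control and 4.49, 8.45, 15.1 and 11.8 CPM in wild-type libraries. Both 5xFAD groups lay far above wild type with no overlap, and overlapped each other. Cst7 rose 127-fold in control against wild type (log2 6.99 ± 0.33 SE, edgeR adjusted p = 7.57e-09) and 98.0-fold in repopulated against wild type (log2 6.61 ± 0.32 SE, edgeR adjusted p = 2.62e-08). Between repopulated and control it differed by -0.37 on the log2 scale, with a 95% interval of -0.93 to 0.18 (edgeR adjusted p = 0.514). Among the 3 cystatins Cst7 therefore made up 1.55% to 1.95% of the TPM in repopulated, 1.68% to 2.29% in control and 0.0108% to 0.0301% in wild-type libraries. The ratio of Cst7 to Cstb was 4.38 ± 0.279 in repopulated, 4.29 ± 0.513 in control (SD, n = 3 each) and 0.0775 ± 0.0319 in wild type (SD, n = 4). The genes whose pattern over the 10 libraries lay nearest to that of Cst7, by the root-mean-square difference of centred log2 CPM, were Lgi2 (0.444), Dkk2 (0.545) and Baiap2l2 (0.547). These averaged 11.8, 10 and 16.3 CPM in repopulated and 13.2, 18.2 and 20.3 CPM in control libraries, and all 3 were listed at 0 in all wild-type libraries. The log2 CPM held a prior count of 2, which sets a floor for genes at 0, so these distances rest on that floor. Fitted log2 fold changes of the 3 in control against wild type were 11.14, 11.61 and 11.76, against 6.99 for Cst7. With wild type at 0, the values of these 3 genes rest on the separate prior count used for fold changes. Their size therefore cannot be compared with that of Cst7.

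Cst3, the cystatin C gene, lies on the same chromosome as Cst7 at 148871722 to 148875512, 1694903 bases away. It had 41474, 36488 and 40350.3 CPM in repopulated, 44876, 45032 and 43238 CPM in control and 30820.2, 38307, 37103 and 34092 CPM in wild-type libraries. The control libraries were the highest and did not overlap either other group, while repopulated and wild-type libraries overlapped. None of the differences passed the test: log2 0.34 ± 0.15 SE in control against wild type (edgeR adjusted p = 0.144), -0.17 ± 0.17 SE in repopulated against control (edgeR adjusted p = 0.621) and 0.17 ± 0.15 SE in repopulated against wild type (edgeR adjusted p = 0.7). On the TPM scale the group means were nearly equal, at 110335 in repopulated, 110629.6 in control and 110506 in wild type. TPM ratios ran below CPM ratios by a median of 0.34 (log2) over all genes in control against wild type and by 0.19 in repopulated against wild type, so the order of Cst3 between groups rests on the scaling. DESeq2 alone among the alternatives called Cst3 in control against wild type (adjusted p = 0.0132). The genes nearest to Cst3 in pattern were Yaf2 (0.044), Selenok (0.053) and Emc7 (0.055). Selenok, a selenoprotein gene, averaged 398 CPM in repopulated, 438 in control and 359 in wild-type libraries.

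Cstb, the cystatin B gene (chromosome 10, 78425670 to 78427622), had 101, 97.4 and 122 CPM in repopulated, 162, 130.3 and 136 CPM in control and 50.6, 70.6, 68.2 and 55.5 CPM in wild-type libraries. The 3 groups did not overlap, with control highest and repopulated between. Cstb rose 2.33-fold in control against wild type (log2 1.22 ± 0.15 SE, edgeR adjusted p = 5.34e-05) and 1.75-fold in repopulated against wild type (log2 0.81 ± 0.15 SE, edgeR adjusted p = 0.00443). Both calls held under all 22 alternatives. Repopulated against control gave -0.41 ± 0.16 SE, which did not pass (edgeR adjusted p = 0.188).

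Ctsl, the cathepsin L gene (chromosome 13, 64361890 to 64370772), encodes a cysteine endoprotease with broad activity. It had 1594, 1597 and 1651 CPM in repopulated, 2622, 2630.3 and 2466 CPM in control and 769, 788, 1023 and 849 CPM in wild-type libraries. The repopulated libraries sat in a narrow band between the other groups, with no overlap on either side. Ctsl rose 3.0-fold in control against wild type (log2 1.59 ± 0.14 SE, edgeR adjusted p = 1.68e-06) and 1.88-fold in repopulated against wild type (log2 0.91 ± 0.13 SE, edgeR adjusted p = 0.000697), both under all 22 alternatives. Repopulated libraries were at -0.67 ± 0.15 SE (log2) against control, a 1.59-fold difference that missed the threshold (edgeR adjusted p = 0.0517). Over the 22 alternatives this value ran from -0.74 to -0.56, and 7 of them called it, with adjusted p from 5.69e-05 to 0.267. Leaving out wild-type 1 or wild-type 3 was enough to bring it under the threshold (adjusted p = 0.0477 and 0.0279). Control 2, which stood apart for other proteases, did not for Ctsl. The genes nearest to Ctsl in pattern were Atf3 (0.061), Ttyh2 (0.139) and Npc2 (0.152). Atf3, a stress-induced transcription factor gene, averaged 24.5 CPM in repopulated, 39.0 in control and 13.1 in wild-type libraries.

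Ctsb and Ctsz encode cathepsin B and the carboxypeptidase cathepsin Z, and their patterns over the 10 libraries were the closest of any pair of the 10 genes (root-mean-square difference 0.09). Ctsb (chromosome 14, 63122462 to 63145923) had 8531, 8976 and 9244 CPM in repopulated, 10941, 6537 and 11787 CPM in control and 3600.1, 3413, 4339 and 4484 CPM in wild-type libraries. Ctsz (chromosome 2, 174427494 to 174439039) had 4669.8, 4539 and 4858 CPM in repopulated, 5327, 3363 and 5753 CPM in control and 2053, 1933, 2538 and 2478 CPM in wild-type libraries. For both genes all libraries from 5xFAD mice lay above all wild-type libraries, control 2 was the lowest of them, and repopulated libraries lay between control 2 and the other controls. Ctsb rose 2.46-fold in control against wild type (log2 1.30 ± 0.19 SE, edgeR adjusted p = 0.000315) and 2.25-fold in repopulated against wild type (log2 1.17 ± 0.19 SE, edgeR adjusted p = 0.00176). Ctsz rose 2.14-fold (log2 1.10 ± 0.18 SE, edgeR adjusted p = 0.000751) and 2.08-fold (log2 1.06 ± 0.18 SE, edgeR adjusted p = 0.00251) in the same comparisons. Repopulated against control gave -0.13 (95% interval -0.53 to 0.27) for Ctsb and -0.04 (-0.42 to 0.34) for Ctsz, neither called (edgeR adjusted p = 0.784 and 0.944), and on the TPM scale Ctsz was higher in repopulated libraries (6026 TPM) than in control (5529.6 TPM). In the fit without the 3 Y-low libraries, which leaves control 2 alone as control, the difference between control and wild type was 0.67 for Ctsb and 0.52 for Ctsz and no longer passed (edgeR adjusted p = 0.0583 and 0.121).

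Ctss, the cathepsin S gene (chromosome 3, 95526786 to 95556405), encodes a cysteine protease that stays active at neutral pH and trims the invariant chain in antigen presentation. It had 16835, 16216 and 18937 CPM in repopulated, 22736, 19253 and 23256 CPM in control and 11080.2, 12471, 17769 and 14541 CPM in wild-type libraries. Control libraries were the highest, and wild-type 3 reached into the range of the repopulated libraries. Ctss rose 1.56-fold in control against wild type (log2 0.64 ± 0.18 SE, edgeR adjusted p = 0.0218), and this call held in 14 of 22 alternatives. It was lost without control 1 (edgeR adjusted p = 0.0841), control 3 (0.0673), wild-type 1 (0.0562) or wild-type 2 (0.054). It was also lost with Y-linked status as a term of the model (0.63, edgeR adjusted p = 0.065). With the compared groups fitted by themselves it did not pass either (edgeR adjusted p = 0.0542). The difference fell to 0.32 on the log2 scale after the correction for GC content and length (edgeR adjusted p = 0.145). It did not pass with control 2 alone as control either (0.42, edgeR adjusted p = 0.343). Neither -0.33 ± 0.19 SE in repopulated against control (edgeR adjusted p = 0.376) nor 0.31 ± 0.18 SE in repopulated against wild type (edgeR adjusted p = 0.465) passed.

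Lgmn was the gene that fell. It encodes legumain, an asparagine-specific cysteine protease that helps to process cathepsins B and L in the lysosome and is itself inhibited by cystatin C and cystatin F (chromosome 12, 102394082 to 102439728). It had 8633, 8372 and 10524 CPM in repopulated, 8451, 6224 and 9182 CPM in control and 11135, 11244, 12377 and 12083 CPM in wild-type libraries. All wild-type libraries lay above all libraries from 5xFAD mice. Lgmn fell 1.47-fold in control against wild type (log2 -0.56 ± 0.17 SE, edgeR adjusted p = 0.0313). The direction was the same under all 22 alternatives (-0.92 to -0.41), and 16 of them kept the call. It was lost without control 1 (adjusted p = 0.0788), control 2 (0.0852), repopulated 1 (0.0527) or wild-type 4 (0.0691), and when the compared groups were fitted by themselves (0.0633). Repopulated against wild type gave -0.35 ± 0.17 SE, with a 95% interval of -0.68 to -0.03, and did not pass (edgeR adjusted p = 0.338), and repopulated against control gave 0.21 ± 0.18 SE (edgeR adjusted p = 0.567).

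Ctsd, the cathepsin D gene (chromosome 7, 142375910 to 142387827), encodes the main aspartic protease of the lysosome. It had 11463, 13394 and 11671 CPM in repopulated, 12541, 6219 and 14851 CPM in control and 5801, 4499, 4821 and 5878 CPM in wild-type libraries. Repopulated libraries and controls 1 and 3 were at 11463 CPM or more, whereas control 2 stood just above the wild-type libraries. Ctsd rose 2.13-fold in control against wild type (log2 1.09 ± 0.23 SE, edgeR adjusted p = 0.00474) and 2.32-fold in repopulated against wild type (log2 1.21 ± 0.23 SE, edgeR adjusted p = 0.00605). The second call held under all 22 alternatives (1.09 to 1.30). The first was 1.39 without control 2 (edgeR adjusted p = 4.62e-05) and 0.19 with control 2 alone as control (edgeR adjusted p = 0.611), and it did not pass when Y-linked status was a term of the model (0.86, edgeR adjusted p = 0.064). Repopulated against control gave 0.12 (95% interval -0.37 to 0.61, edgeR adjusted p = 0.845), -0.17 without control 2 and 0.97 against control 2 alone (edgeR adjusted p = 0.0448). The genes nearest to Ctsd in pattern were Pkm (0.088), Pld3 (0.114) and Syngr1 (0.136). Pld3, which encodes a lysosomal nuclease, averaged 277 CPM in repopulated, 226 in control and 119 in wild-type libraries.

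Ctsa encodes cathepsin A, also called protective protein because it holds beta-galactosidase and neuraminidase 1 in a stable complex (chromosome 2, 164832872 to 164841032). It had 2252, 2367 and 2405 CPM in repopulated, 2061, 1059 and 2389 CPM in control and 1604, 1336, 1761 and 1629.9 CPM in wild-type libraries. Control 2 was the lowest of all 10 libraries, so control and wild type overlapped, and repopulated libraries lay above all wild-type libraries. No comparison passed: log2 0.21 ± 0.21 SE in control against wild type (edgeR adjusted p = 0.522), 0.35 ± 0.23 SE in repopulated against control (edgeR adjusted p = 0.439) and 0.57 ± 0.21 SE in repopulated against wild type (edgeR adjusted p = 0.196). Without control 2, control against wild type was 0.49 and called (edgeR adjusted p = 0.0325). Repopulated against wild type, which holds no control library, stayed at 0.57 and was called (edgeR adjusted p = 0.0158), as the groups share 1 estimate of the spread. It was also called at 0.57 with the compared groups fitted by themselves (edgeR adjusted p = 0.0325). With control 2 alone as control, control against wild type was -0.64 (edgeR adjusted p = 0.0574) and repopulated against control 1.15 (edgeR adjusted p = 0.0182). On the TPM scale Ctsa averaged 1284 in control and 1409 in wild type, the opposite order to CPM.

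Control 2 thus differed from controls 1 and 3 for some of the proteases and not for others. Its TPM was 47.5% of their mean for Ctsd, 49.6% for Ctsa, 62.9% for Ctsb, 63.4% for Ctsz and 73.9% for Lgmn. It was 90.8% for Ctss and 107% for Ctsl, and among cystatins 78.2% for Cst7, 90.8% for Cstb and 106% for Cst3. Of the 7 proteases 6 lay below the group mean in control 2, by a median of 0.48 on the log2 scale. Wild-type 2 lay below its group mean for 7 of 7, by a median of 0.2. Control 2 was also the control library with Y-linked transcripts present and with the highest neutrophil marker sum of all 10 libraries (319 CPM, against 17.6 and 24.8 in controls 1 and 3), and wild-type 2 the wild-type library with them near absent. The part of either library's difference in the comparisons between groups was not tested beyond the values without them.

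**Figure D3:**
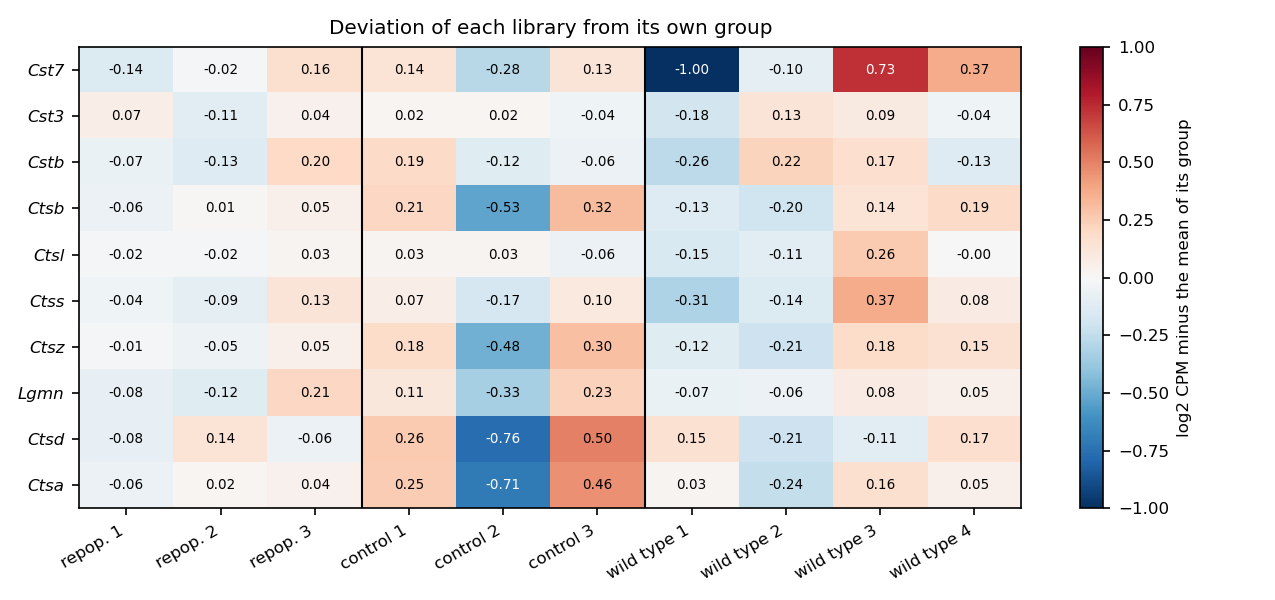
Log2 CPM of each gene (down) in each library (across) minus the mean of its own group, with repopulated, control and wild-type libraries from left to right; blue is below and red above the group mean. Control 2 is blue for Ctsb, Ctsz, Lgmn, Ctsd and Ctsa and near 0 for Ctsl and Cst3, and repopulated libraries stay within 0.21 of their mean for all 10 genes.

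The make-up of the protease transcripts also differed between groups. Lgmn held 12.2% to 14.3% of the summed TPM of the 7 proteases in repopulated, 10.2% to 10.4% in control and 21.9% to 25.4% in wild-type libraries. Ctsb held 13% to 14% in repopulated, 12.4% to 14.7% in control and 7.86% to 8.82% in wild-type libraries. Lgmn therefore stood at 0.971 ± 0.112 of the TPM of Ctsb in repopulated and 0.744 ± 0.0717 in control libraries (SD, n = 3 each), against 2.88 ± 0.229 in wild type (SD, n = 4). The Lgmn ratio to Ctsb did not overlap between any 2 of the 3 groups, and control 2, at 0.826, lay with the other controls (0.693 and 0.712). As a ratio within each library it does not depend on the scaling between libraries. Ctss was the largest part in every library, at 37.6% to 40.7% in repopulated, 41.8% to 52.0% in control and 39.9% to 49.7% in wild type. Ctsz held 9.72% to 10.2% in repopulated, 8.11% to 9.62% in control and 6.44% to 7.02% in wild type, and Ctsl 2.66% to 2.81%, 3.34% to 5.05% and 1.89% to 2.1% in the same order. Ctsd ranged more widely, with 16.7% to 20.6% in repopulated, 10.7% to 17.7% in control and 8.98% to 13.9% in wild type. All these shares are descriptions, and no test was run on them.

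**Figure D4:**
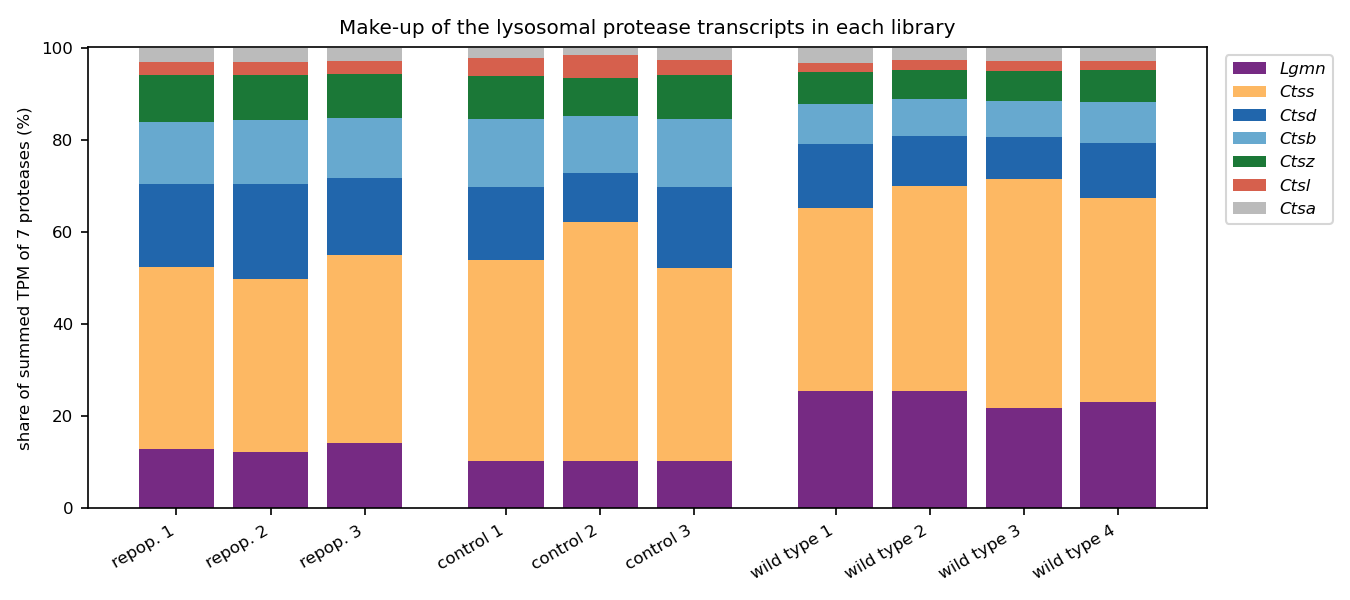
Share of the summed TPM of 7 lysosomal proteases (vertical axis, percent, starting at 0) held by each in every library, repopulated, control and wild type from left to right. The share of Lgmn is 10.2% to 14.3% in the libraries from 5xFAD mice and at least 21.9% in wild type, and the share of Ctss is largest in control 2.

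Cystatin transcripts outnumbered protease transcripts in every library. Summed TPM of the 3 cystatins over that of the 7 proteases was 1.86 ± 0.137 in repopulated, 1.92 ± 0.411 in control (SD, n = 3 each) and 2.3 ± 0.324 in wild type (SD, n = 4). The ranges were 1.75 to 2.01, 1.62 to 2.39 and 2.1 to 2.78 in the same order, so control overlapped both other groups. Over the 5 cysteine proteases alone the ratio was 2.36 ± 0.162 in repopulated, 2.3 ± 0.372 in control and 2.69 ± 0.374 in wild type, and the ranges overlapped. Nearly all of the cystatin sum is Cst3, a secreted protein, so the ratio compares transcripts and not inhibitor and enzyme in the same compartment.

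The remaining genes of the pathway were read from lists of the same fit. Of 20 other cystatin genes 9 were in the table and 1 was tested, Kng2, at 0.405 to 1.83 CPM over all libraries and not called. Cst9, Stfa3 and Fetub were listed at 0 in every library. Of 17 other cathepsin genes 14 were in the table and 7 were tested, of which 2 rose in control against wild type (10.1% of all genes) and 1 in repopulated against wild type (3.4%). Ctsc, whose product cathepsin C is a target of cystatin F, averaged 258 TPM in repopulated, 271 in control and 339 in wild-type libraries and was not called (edgeR adjusted p = 0.654 in control against wild type, 0.493 in repopulated against control and 0.818 in repopulated against wild type). Ctse, the gene of the aspartic protease cathepsin E, had 11.8, 8.54 and 10.4 CPM in repopulated, 25.7, 9.57 and 29.5 CPM in control and 0.82, 0, 0.389 and 0.315 CPM in wild-type libraries. It rose 56.1-fold in control (log2 5.81 ± 0.58 SE, edgeR adjusted p = 1.2e-05) and 26.6-fold in repopulated libraries (log2 4.74 ± 0.57 SE, edgeR adjusted p = 0.000145) against wild type, and its wild-type counts were so low that these folds rest on few reads. Here too control 2 was below the other controls. Ctsw, at 1.18 to 1.84 CPM in control and 0 to 0.34 CPM in wild-type libraries, rose in control against wild type (log2 3.05 ± 0.94 SE, edgeR adjusted p = 0.0348), a call that 9 of 21 alternatives kept, and the other 5 tested cathepsins, Ctsc among them, were not called in any comparison. In repopulated against control edgeR and DESeq2 called 0 of the 7, where edgeR called 0.568% of all genes. At an unadjusted p under 0.05 there were 2 (Ctse and Ctsf), against 18.5% of all genes.

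Of 10 tested partners of cathepsin A and other peptidases, not all of them lysosomal, 4 rose and 0 fell in control against wild type. Of all genes tested 10.1% rose and 8.04% fell there. In this list 0 were called by edgeR or DESeq2 in repopulated against control, where edgeR called 0.568% of all genes. There 0 had an unadjusted p under 0.05, against 18.5% of all genes. In repopulated against wild type 4 rose, where 3.4% of all genes rose. Cpq, a lysosomal carboxypeptidase gene, rose 4.69-fold in control (edgeR adjusted p = 5.8e-06) and 3.98-fold in repopulated libraries (edgeR adjusted p = 2.8e-05) against wild type. Dpp7, a dipeptidyl peptidase gene, rose 2.79-fold in control (edgeR adjusted p = 0.000497) and 2.74-fold in repopulated libraries (edgeR adjusted p = 0.0014). Glb1, the gene of beta-galactosidase, rose 2.08-fold (edgeR adjusted p = 0.000556) and 1.8-fold (edgeR adjusted p = 0.00775) in the same comparisons. With control 2 alone as control, Dpp7 (log2 0.68, edgeR adjusted p = 0.106) and Glb1 (log2 0.49, edgeR adjusted p = 0.131) no longer passed in control against wild type. Neu1, the other enzyme of the cathepsin A complex, averaged 23.4 TPM in repopulated, 20.7 in control and 22.4 in wild-type libraries and was not called.

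Of 15 genes that deliver enzymes to the lysosome or build its membrane, 3 rose and 0 fell in control against wild type, a share near that of all genes tested, of which 18.1% were called there. In this list edgeR called 0 in repopulated against control, where it called 0.568% of all genes. There 3 had an unadjusted p under 0.05 (18.5% of all genes), and DESeq2 called 1. In repopulated against wild type edgeR called 0 (4.18% of all genes), with 4 at an unadjusted p under 0.05 (15.1%) and 1 called by DESeq2. The 3 that rose in control against wild type were Lamp2, Gnptab and Vps29. Lamp2, a lysosomal membrane protein gene, had a log2 fold change of 0.77 (edgeR adjusted p = 0.00299). Gnptab, whose enzyme makes the mannose 6-phosphate tag, had 0.93 (edgeR adjusted p = 0.00825), and Vps29, a retromer subunit gene, 0.63 (edgeR adjusted p = 0.0134). Vps29 was not called without control 2 (0.55, edgeR adjusted p = 0.0559), nor Lamp2 (0.67, edgeR adjusted p = 0.0727) and Gnptab (0.45, edgeR adjusted p = 0.408) with control 2 alone as control. The receptors of that tag, M6pr and Igf2r, were not called. Of 6 tested transcription factors of lysosomal genes and their regulators, 1 rose and 1 fell in control against wild type, where 18.1% of all genes were called. Fnip2, which acts with folliculin, rose (log2 0.87 ± 0.13 SE, edgeR adjusted p = 0.000295). Tfe3 fell there (log2 -0.51 ± 0.17 SE, edgeR adjusted p = 0.0479), a call that 6 of 22 alternatives kept. Tfeb averaged 5.89 TPM in repopulated, 3.73 in control and 7.34 in wild-type libraries and was not called. Of the 6, edgeR called 0 in repopulated against control, where it called 0.568% of all genes. There 3 had an unadjusted p under 0.05 (18.5% of all genes), and DESeq2 called 1. In repopulated against wild type edgeR called 0 (4.18% of all genes), with 1 at an unadjusted p under 0.05 (15.1%) and 1 called by DESeq2.

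Of 11 tested serpins and other protease inhibitors 3 rose and 1 fell in control against wild type, where 10.1% of all genes tested rose and 8.04% fell. In this list edgeR called 0 in repopulated against control, where it called 0.568% of all genes. There 3 had an unadjusted p under 0.05 (18.5% of all genes), and DESeq2 called 1. In repopulated against wild type 2 rose and 1 fell, where 3.4% and 0.784% of all genes did. Serpine2, a serpin of extracellular serine proteases, had 2559, 2533 and 2999 CPM in repopulated, 3385, 2139.9 and 3548 CPM in control and 1176, 1219.9, 1347 and 1257 CPM in wild-type libraries, with 5xFAD groups apart from wild type. It rose 2.42-fold in control (edgeR adjusted p = 0.000125) and 2.16-fold in repopulated libraries (edgeR adjusted p = 0.000908) against wild type. Timp2, an inhibitor of metalloproteases, rose 2.19-fold in control (edgeR adjusted p = 3.65e-05) and 1.73-fold in repopulated libraries (edgeR adjusted p = 0.00197) against wild type. Serpinb6a, an intracellular serpin, rose 2.41-fold in control against wild type (edgeR adjusted p = 0.006), but not with control 2 alone as control (edgeR adjusted p = 0.185). Serpinf1, which encodes pigment epithelium-derived factor, had 24.8, 19.7 and 27.7 CPM in repopulated, 16.5, 12.7 and 14.8 CPM in control and 42.0, 44.5, 50.2 and 48.3 CPM in wild-type libraries. Its 3 groups did not overlap, and it fell 3.16-fold in control (edgeR adjusted p = 1.01e-05) and 1.92-fold in repopulated libraries (edgeR adjusted p = 0.00258) against wild type.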

How the data were processed

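RNA of sorted hippocampal microglia was made into libraries by the Smart-Seq protocol, as the labels' protocols state. A single deposited table gives 3 values per gene and library. The deposited estimated counts, headed by the authors as read counts, were taken as not normalised. Of their values above 0, 20.1% differ from a whole number by more than 0.001, which does not show whether they were scaled. FPKM and TPM, as named in the authors' file headers, scale reads by gene length and depth, and neither entered a test. HISAT, Bowtie2 and the build GRCm38.p6 are named in the submitters' processing notes, with the quantifier not given in the sources used here. Entrez identifiers link the genes to RefSeq, and coordinates are those of that build.

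Counts were rounded and tested with edgeR 4.0.16 (R 4.3.3, limma 3.58.1, statmod 1.5.0), with filterByExpr, TMM normalisation, robust quasi-likelihood fits and 1 model of the 3 groups over 10 libraries. P-values were adjusted over all 12505 tested genes by Benjamini-Hochberg at 0.05. The biological coefficient of variation was 27.3%. A standard error is the size of the log2 fold change divided by the root of its F statistic. The 95% intervals use 1.96 of them, a normal value, and are narrower than the F test would give. Fold changes use a prior count of 0.125. Log2 CPM, used for distances in pattern and for deviations from a group mean, use a prior count of 2. CPM are relative to TMM-scaled library totals, and depth ran from 18501136 to 23286814 counts. Every pair of libraries within a group differed by more than sampling noise. The fit was tested on simulated data with known changes.

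The 10 genes, the pathway lists and the marker lists were chosen with earlier results of these data known. The text names all 10, up to 3 called genes per pathway list, direction and comparison by p, and the 3 genes nearest in pattern to Cst7, Ctsl, Ctsd and Cst3. Ctsc, Neu1, Tfeb, Kng2, the markers of cell types, the mannose 6-phosphate receptors and genes named at 0 or at an unadjusted p stand outside this rule and were named after their values were seen. Lists are described by counts, with no test of the list. Alternatives were 2 other normalisations (DESeq2 factors, upper quartile), 2 other tests (DESeq2 1.42.0, limma-voom), 2 other filters, a prior count of 0.5, leaving out each library, the replicate number as a block, fits of the compared groups by themselves, a threshold of 0.01, a term for Y-linked status (4 genes, threshold 50 CPM) and leaving out the 3 libraries under it. With those 3 out, control 2 was the only control library and was assumed to vary like the other groups. A correction for GC content and length of the longest GENCODE transcript (12133 genes) and the alternatives for pathway genes were chosen after seeing the data.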

Additional observations from a re-analysis of the deposited data

How the results depend on the processing

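Of the 10 genes, 8 were called in control against wild type, and 6 to 8 with a library left out; 4 were called without the 3 Y-low libraries (control 1, control 3 and wild-type 2). In repopulated against control 0 were called. There 1 was called by DESeq2, by limma-voom, with no filter, with the filter of 5 CPM in 3 libraries and with the compared groups alone, 2 without the Y-low libraries, and 0 to 1 with a library left out. In repopulated against wild type 6 were called, and 6 to 7 under all alternatives. Of all genes, 2265 were called in control against wild type, 1202 without the Y-low libraries, 1037 at a threshold of 0.01 and 1315 to 2910 with a library left out (1315 without control 1, 1465 without control 2). In repopulated against control 71 were called. There DESeq2 called 698, limma-voom 125, the fit with no filter 166, the filter of 5 CPM 125, the compared groups alone 630, the fit without the Y-low libraries 388, a term for Y-linked status 1, a threshold of 0.01 4, and fits with a library left out 0 to 328 (328 without wild-type 3, 178 without control 3, 124 without wild-type 1, and 0 to 47 without any other library). In repopulated against wild type 523 were called, 289 without the Y-low libraries, 256 at a threshold of 0.01 and 284 to 688 with a library left out (284 to 305 without a repopulated library). With the replicate number as a block, 1464 genes were called in control against wild type and 25 in repopulated against control, and of the 10 genes Lgmn alone lost its call (edgeR adjusted p = 0.0582). Libraries that share a number did not deviate together over all tested genes (correlations of -0.105 to 0.071). Deviations were taken from the means of groups of 3 or 4 libraries, so these values cannot exclude a batch shared by number.

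Differences near 0 changed sign. In control against wild type Ctsa was -0.64 without the Y-low libraries and -0.02 to 0.49 with a library left out. In repopulated against control Ctsz was 0.00 with limma-voom, 0.11 with the Y-linked term, 0.48 without the Y-low libraries and -0.24 to 0.11 with a library left out (0.04 without control 1, 0.11 without control 3). Ctsb there was 0.05 with the Y-linked term, 0.45 without the Y-low libraries and -0.35 to 0.03 with a library left out. Ctsd there was -0.11 with the correction for GC content and length and -0.17 to 0.38 with a library left out. Cst3 was -0.01 with that correction in repopulated against wild type. Ctsc was -0.04 in control against wild type under that correction and also without the Y-low libraries, and -0.26 to 0.01 in repopulated against wild type with a library left out. The cause was not tested. Over 22 alternatives, Cst7, Cstb and Ctsl kept their calls in both comparisons with wild type, and Ctsb, Ctsz and Ctsd in repopulated against wild type. DESeq2 called 4 of the other cathepsins in control against wild type, against 2. Deposited FPKM gave the same ratios between genes as TPM, which follows from how both scales are made and is no check. Values from control 2 alone rest on 1 library.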
